A study of Mus musculus with 39 samples.

Results

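Cell cycle and DNA replication genes were followed in the livers of 39 male mice. The set was a list of 42 genes, 16 that act in S phase or at its entry and 26 that act in G2 and mitosis. Each gene was read on the array probe assigned to it, and on the brightest in the liver channel where a gene had several. A probe was matched for 41 of the 42, that is for all 16 S phase genes and for 25 mitosis genes, among 17016 genes and 25903 probes in all. No level of Mki67 was analysed here, and of this gene only the promoter window was used. The rule names the genes by function and uses no measured value but this brightness. The list was, however, chosen with earlier results of these data known.

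The mice were C57BL/6J males, 5 to 6 weeks old when bought and housed singly. Aggressor-exposed (AggE) mice spent 6 hrs a day in a mesh cage inside the home cage of a trained SJL male, with short bouts of physical attack, for 5 or 10 days. Control (Ctrl) mice went through sham sessions of the same length, caging and food withdrawal, with clean bedding and no aggressor, so they were handled and fasted rather than undisturbed. Liver was taken 24 hrs after either regimen (4 Ctrl and 5 AggE mice each), 1.5 wks after the 5-day regimen (4 Ctrl and 5 AggE) and 4 wks after the 10-day regimen (6 Ctrl and 6 AggE). A partition test in an aggressor's cage took place an hour before the final bleed. At 1.5 wks, the titles of all 5 AggE mice and of Ctrl mouse 4 name a 10-day regimen while their descriptions name 5 days. At 24 hrs post-5-day, the AggE descriptions name both 1 and 5 days. The fuller descriptions were followed. Liver RNA was labelled with Cy-5 and hybridised against a Cy-3 labelled reference made from pooled mouse cell lines. A level is given below as the log2 ratio of liver to this reference, and a change as the difference of 2 such levels.

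A dividing cell duplicates its DNA in S phase and separates the copies in mitosis. Ahead of S phase, Cdc6 and Cdt1 load the MCM helicase (Mcm2 to Mcm7) onto replication origins. Ribonucleotide reductase (Rrm1, Rrm2), thymidylate synthase (Tyms) and thymidine kinase (Tk1) then supply nucleotides, and Pcna clamps the polymerase to the template. Cyclin A and B complexes with Cdk1, the kinases Plk1, Aurka and Aurkb, the checkpoint proteins Bub1, Bub1b and Ttk, the kinesins, and the anaphase activator Cdc20 carry the cell through mitosis. Adult hepatocytes are mostly quiescent and can re-enter the cycle after injury or loss of tissue. Transcription of S phase genes is classically under E2F factors, while many mitotic genes carry CCAAT boxes and a cell cycle homology region (CHR), sites used by NF-Y and by the MuvB complexes.

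Promoters are shown because the list mixes these 2 classes, which are compared throughout. RefSeq windows of 250 bases before to 50 after each transcription start (GRCm38.p6) were found for 35 of the 42 genes. Both strands were searched for CCAAT, for the CHR as TTTGAA or TTCGAA, and for E2F sites as TTTCGCGC, TTTGGCGC or TTTCCCGC, which can overlap on opposite strands. Stretches before the start are printed below 5′ to 3′ on the strand of the gene, with matches in capitals. On the minus-strand copy of a match the capitals read as its reverse complement, such as ATTGG for CCAAT. Cdc20 lies at chr4:118437344-118437463 (minus strand), Ccnb2 at chr9:70421555-70421731 (minus), Plk1 at chr7:122159315-122159434 (plus), Mcm5 at chr8:75109346-75109508 (plus) and Mcm6 at chr1:128359706-128359825 (minus).
Cdc20: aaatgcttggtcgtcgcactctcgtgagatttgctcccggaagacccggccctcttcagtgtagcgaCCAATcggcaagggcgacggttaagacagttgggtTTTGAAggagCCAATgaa
Ccnb2: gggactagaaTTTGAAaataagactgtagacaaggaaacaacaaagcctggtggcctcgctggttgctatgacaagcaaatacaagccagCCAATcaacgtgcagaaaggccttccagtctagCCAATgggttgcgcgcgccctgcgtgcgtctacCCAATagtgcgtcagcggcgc
Plk1: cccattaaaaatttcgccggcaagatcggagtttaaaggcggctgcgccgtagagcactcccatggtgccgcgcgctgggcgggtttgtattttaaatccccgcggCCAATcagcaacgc
Mcm5: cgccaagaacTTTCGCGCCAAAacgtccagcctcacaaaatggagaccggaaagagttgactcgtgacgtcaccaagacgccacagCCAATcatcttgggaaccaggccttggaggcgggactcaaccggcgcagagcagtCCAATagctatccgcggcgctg
Mcm6: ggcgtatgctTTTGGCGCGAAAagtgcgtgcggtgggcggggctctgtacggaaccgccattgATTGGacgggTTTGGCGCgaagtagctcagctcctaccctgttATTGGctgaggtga

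In Ccnb2, which encodes a B-type cyclin, the 3 CCAAT boxes began 87, 54 and 21 bases before the start. In Mcm5 and Mcm6 an E2F match was made of 2 overlapping forms on opposite strands. A few genes had more than 1 window, and a gene was counted where any of its windows held the match. A CHR match was present in 17 of 21 mitosis genes (81%), in 2 of 14 S phase genes (14.3%) and in 21.7% of all 27025 genes with a window. CCAAT was present in 18 mitosis genes (85.7%), 8 S phase genes (57.1%) and 41.1% of all. An E2F match was present in 6 S phase genes (42.9%), 1 mitosis gene (4.76%) and 2.12% of all. The 300-base window of Birc5 held none of these letters. Ccna2, Mcm4, Tpx2, Ccne2, Kif20a, Foxm1 and Aurkb had no window.

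The 41 genes were dim in liver. Averaged over all mice, their log2 ratios ran from -3.35 for Mcm4, 10.2-fold below the reference, to -0.26 for E2f1. In the reference channel 38 of the 41 were well above background on all 39 arrays. In the liver channel only 5 were: the helicase subunits Mcm6 and Mcm7, Tk1, the kinase Plk1 and Birc5 (survivin, a subunit of the chromosomal passenger complex). Another 16 were above background on most arrays, and the other 20 on fewer. Unless the liver channel alone is named, every change below is relative to this reference, and in whole liver fewer cells of a type cannot be told apart from less RNA per cell.

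The number of members detected moved with the detection on the array as a whole. Between 7 and 41 members were above background per array, and the share of all probes above background ran from 19.96% to 79.6%. At 24 hrs post-5-day this share was 33.3% to 40.2% in Ctrl and 21.1% to 37.0% in AggE mice. It was 39.7% to 54.5% in Ctrl and 41.9% to 54.9% in AggE at 24 hrs post-10-day, 24.5% to 50.6% and 19.96% to 57.5% at 1.5 wks, and 56.4% to 79.6% and 51.1% to 67.6% at 4 wks. The median ratio of the 16 S phase genes was lower on arrays with a higher share, across a range of -0.85 to -2.29. Results are therefore also given from a fit with this share as a covariate, an addition made after seeing the data. Slides were in part of 1 group only: the 4 Ctrl mice at 24 hrs post-5-day were on slide 1, AggE mice 1 to 4 on slide 2 and AggE mouse 5 on slide 3, so slide and group cannot be told apart there. The same held at 24 hrs post-10-day, with Ctrl on slide 4 and AggE on slides 5 and 6. All 4 wk arrays were scanned on the second of 2 days, as were AggE mouse 2 (slide 7) and Ctrl mouse 4 (slide 9) of the 1.5 wks groups.

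**Figure D1:**
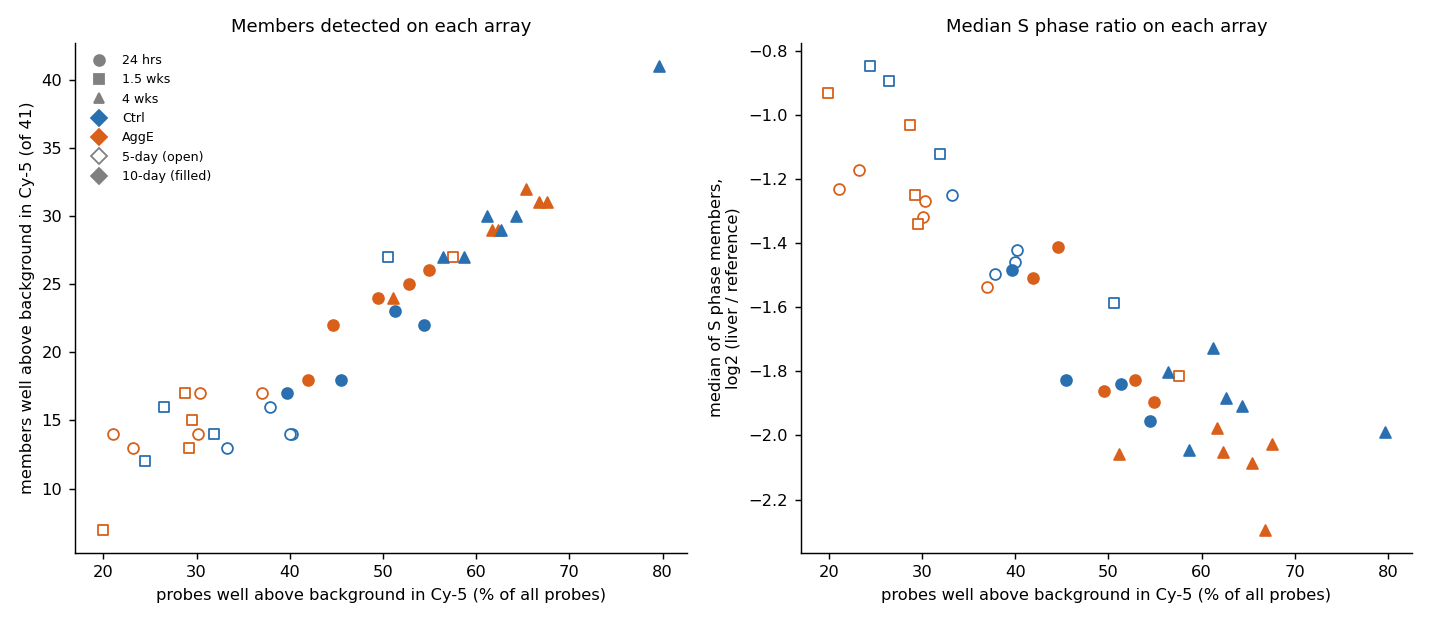
The x axis of both panels is the percentage of all probes well above background on an array. The y axis is the number of the 41 genes above background (left) or the median log2 liver/reference ratio of the 16 S phase genes (right), with 1 point per mouse (blue Ctrl, orange AggE; circles 24 hrs, squares 1.5 wks, triangles 4 wks; open 5-day, filled 10-day). Arrays with more probes detected hold more detected members, from 7 to 41, and lower S phase ratios, from -0.85 to -2.29.

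At 24 hrs post-5-day stressor most of the 41 genes had a higher mean in AggE than in Ctrl liver, and the 2 mitotic regulators Birc5 and Cdc20 passed the test. The mean was higher for 36 of the 41, 14 of 16 in S phase (median change 0.25) and 22 of 25 in mitosis (median change 0.29), against a median of 0.0007 over all 17016 genes. In the limma fit with Benjamini-Hochberg adjustment over all 25903 probes, 2 of the 41 had an adjusted p of 0.05 or less, where 1.47% of all probes did. At an unadjusted p of 0.05 or less 17 members were higher and 1 was lower, beside 8.17% of all probes higher and 7.82% lower.

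Birc5 stood at -3.11, -2.88, -3.29 and -3.31 in Ctrl mice 1 to 4 and at -2.20, -2.49, -1.96, -1.42 and -3.15 in AggE mice 1 to 5. Cdc20, which activates the anaphase-promoting complex, stood at -3.27, -3.23, -3.36 and -3.31 in Ctrl and at -2.35, -2.79, -2.40, -1.91 and -3.23 in AggE mice. AggE mice 1 to 4 lay above all Ctrl mice for both genes, while AggE mouse 5 lay within the Ctrl range for Birc5 and at its upper edge for Cdc20. Birc5 rose by 0.90 ± 0.22 (SE; n = 4 and 5; 1.87-fold; limma adjusted p = 0.0361) and Cdc20 by 0.76 ± 0.19 (1.69-fold; limma adjusted p = 0.0368).

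The next members in order of p were spread over both classes. Aurka, the spindle pole kinase, stood at -2.09, -1.95, -2.20 and -2.26 in Ctrl and at -1.62, -1.60, -1.32, -1.35 and -2.16 in AggE mice, a difference of 0.52 ± 0.15 (adjusted p = 0.0679). Mcm7 stood at -2.68, -2.37, -2.68 and -2.40 in Ctrl and at -1.95, -2.00, -1.98, -1.92 and -2.25 in AggE mice, a difference of 0.52 ± 0.15 (adjusted p = 0.0684). All 5 AggE mice were above all 4 Ctrl mice for Mcm7, and 4 of 5 were for Aurka. Rrm1, the large subunit of ribonucleotide reductase, had a difference of 0.54 ± 0.17 (adjusted p = 0.0877) and Ccna2 (cyclin A2) of 0.62 ± 0.20 (adjusted p = 0.104). Ccna2 was above background in 1 of 4 Ctrl and 2 of 5 AggE mice, and Rrm1 in 4 of 4 and 3 of 5. Mcm6 stood at -3.47, -3.46, -3.66 and -3.38 in Ctrl and at -2.73, -2.74, -2.74, -2.43 and -3.25 in AggE mice, a difference of 0.72 ± 0.24 (adjusted p = 0.108). Again all AggE mice lay above all Ctrl mice, and mouse 5 was the nearest to Ctrl. Over all probes, 2.54% were higher in AggE mice with no overlap and 3.85% were lower with none.

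Within the helicase the difference was 0.72 for Mcm6, 0.52 for Mcm7, 0.33 for Mcm4, 0.29 for Mcm5, 0.17 for Mcm3 and 0.14 for Mcm2. Mcm2 and Mcm3 were above background on 1 and 0 of the 9 arrays, and Mcm4, Mcm6 and Mcm7 on all 9. Differences between the subunits were not tested. The licensing factor Cdc6 was the 1 member lower at an unadjusted p, by -0.21 ± 0.09 (adjusted p = 0.230), and was above background on none of the 9 arrays. Tk1 stood at -0.11, -0.27, -0.24 and -0.69 in Ctrl and at 0.20, -0.23, 0.08, -0.42 and -0.19 in AggE mice. The groups overlapped, with a difference of 0.21 ± 0.21 (adjusted p = 0.686). Cdk1, the mitotic kinase itself, had a difference of 0.15 ± 0.14 (adjusted p = 0.674) and Ccnb1, its cyclin B1 partner, of -0.17 ± 0.12 (adjusted p = 0.525). Ccnb1 was above background on none of the 9 arrays, and its other probes, never above background, gave -0.19 and 0.16.

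**Figure D2:**
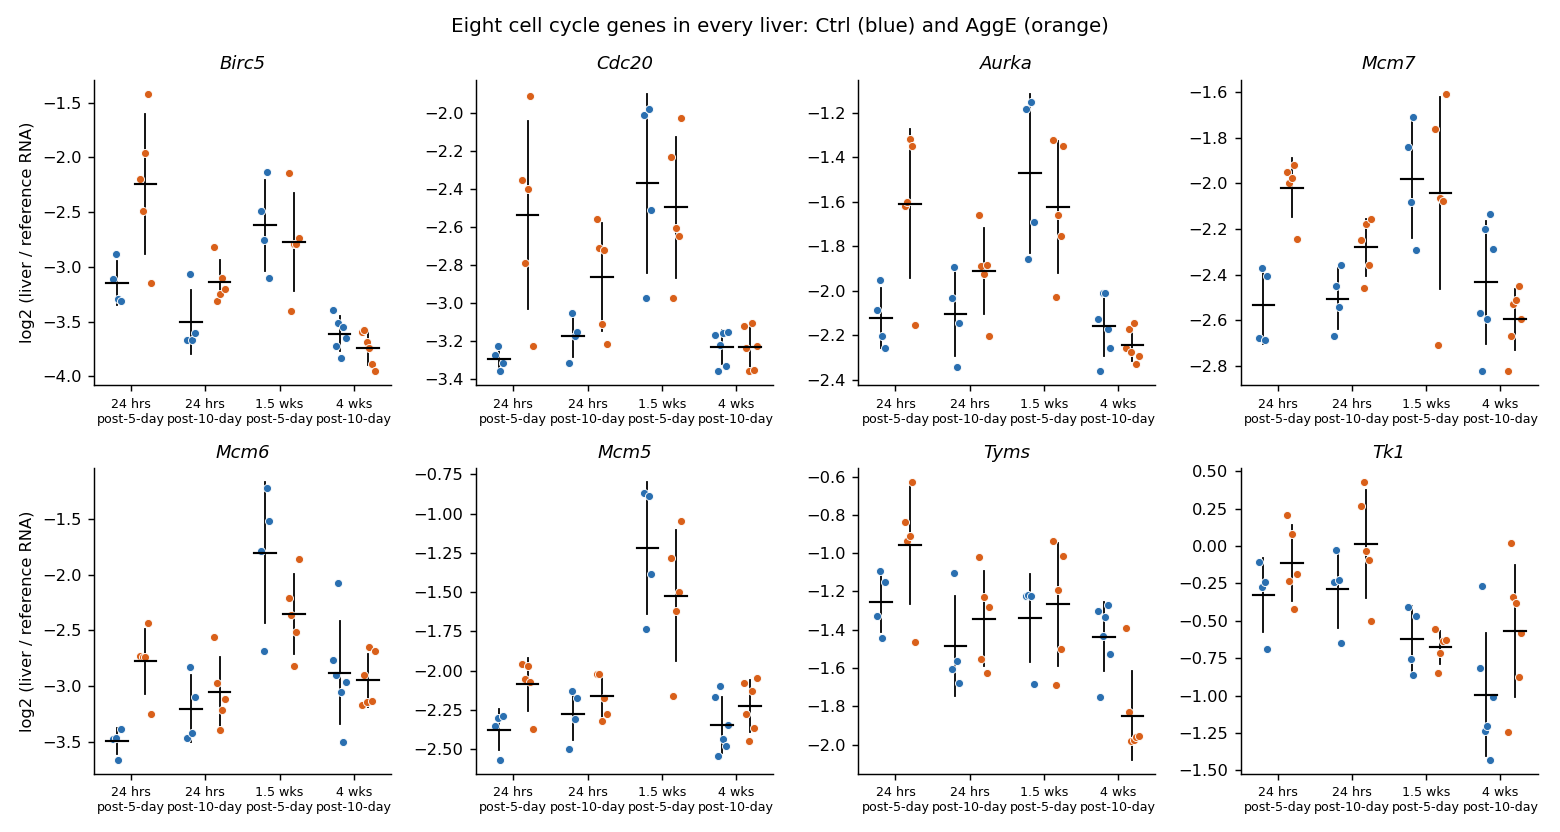
Log2 liver/reference ratio (y axis) of 8 genes by group (x axis), with 1 point per mouse, the bar at the group mean and the line spanning 1 SD to each side; Ctrl is blue and AggE orange. At 24 hrs post-5-day AggE mice 1 to 4 lie above every Ctrl mouse for Birc5, Cdc20, Aurka, Mcm6 and Mcm7, and the Ctrl mice at 1.5 wks lie above the Ctrl mice at 24 hrs for Mcm5 and Mcm6.

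How many members passed depended on the mice and on the scale. Except for the liver channel alone, the share of all probes passing in these refits is not given. The counts therefore do not show whether the members moved apart from all probes. Without AggE mouse 5, 8 members passed (Aurka, Birc5, Ccna2, Cdc20, Mcm6, Mcm7, Pcna and Rrm1). Without AggE mouse 1, 3 or 4, or without Ctrl mouse 1, 3 or 4, none did, and without Ctrl mouse 2, 1 did. In the liver channel taken alone 7 passed, all higher, where 2.33% of all probes passed higher and 2.41% lower, with Aurka at 0.38 (adjusted p = 0.00482), Mcm7 at 0.48 (adjusted p = 0.0155), Birc5 at 0.77 and Cdc20 at 0.52 (adjusted p = 0.0467) among them; 34 of the 41 were then higher, with a median of 0.13. Sizes were larger in the series table, with Birc5 at 1.48, Cdc20 at 1.71 and a median of 0.84, and from processed signals, with 1.32, 1.48 and 0.62. With the share of detected probes as a covariate 32 were higher, with a median of 0.12. Birc5 then passed at 0.62 (adjusted p = 0.0491) and Cdc20 did not at 0.60 (adjusted p = 0.0753). With slide as a random block none passed, and 7 members were higher at an unadjusted p. With these 2 groups fitted without the other 6, the 2 members that passed were Mcm6 and Mcm7, and Birc5 and Cdc20 did not pass.

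**Figure D3:**
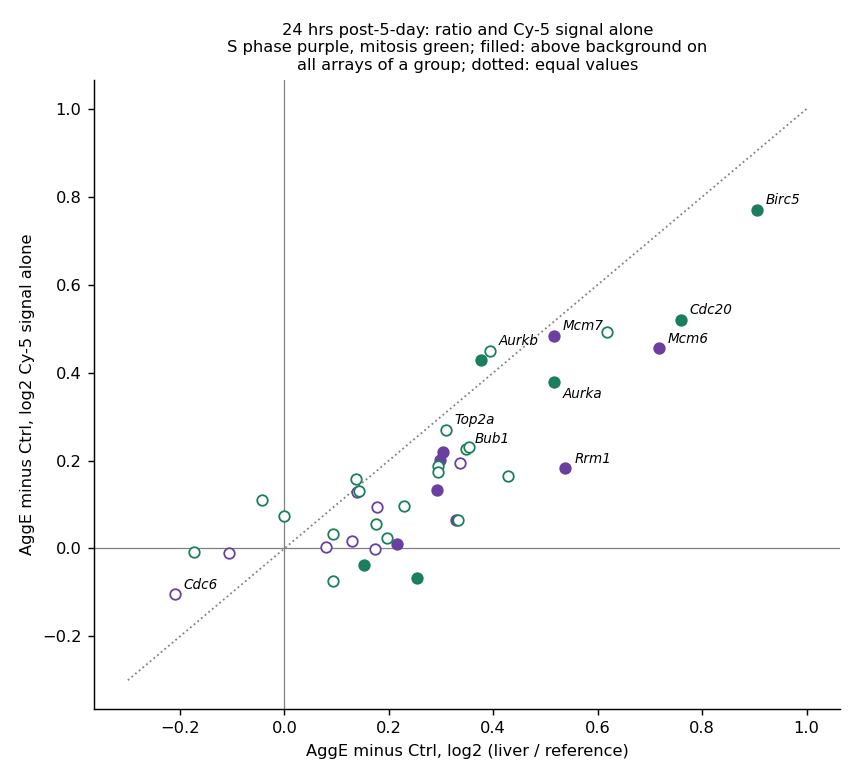
Each point is 1 of the 41 genes: the AggE minus Ctrl change at 24 hrs post-5-day in the log2 liver/reference ratio (x axis) against the change in the log2 liver (Cy-5) signal alone (y axis), by class. Birc5 is highest on both scales, at 0.90 and 0.77, and 34 genes are above 0 in the liver signal alone.

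Other genes of the cycle were read from lists chosen with earlier results of these data known. Of 35 other DNA replication genes 24 were higher at 24 hrs post-5-day (median 0.17), and 1 passed. This was Lig1, the ligase that joins Okazaki fragments, at -2.27 ± 0.17 in Ctrl and -1.52 ± 0.30 in AggE mice (SD, n = 4 and 5; change 0.75, adjusted p = 0.00887). Of 53 other mitosis genes 42 were higher (median 0.12), and 1 passed, where 149 of all 17016 genes passed higher and 106 lower. Stmn1 (stathmin), which destabilises microtubules, was at -3.81 ± 0.09 in Ctrl and -2.63 ± 0.69 in AggE mice, a change of 1.18 (adjusted p = 0.0017) with a spread between AggE mice from -3.65 to -1.79. Of 20 genes for cyclins D, their kinases and the RB and E2F family 11 were higher (median 0.02), and E2f2, a transcription factor of the G1 to S step, passed at 0.45 (adjusted p = 0.0337), from -0.66 ± 0.15 in Ctrl to -0.21 ± 0.27 in AggE mice. Of 18 cell cycle inhibitors and p53 targets 10 were higher, and Cdkn2c, the cyclin D kinase inhibitor p18, passed at 0.68 (adjusted p = 0.00694), from -1.35 ± 0.04 in Ctrl to -0.67 ± 0.20 in AggE mice.

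Markers of other liver cells moved in part alongside. Summed marker levels, here and below, are intensities of the liver channel alone. Erythroid precursor markers summed to 5940 to 10400 intensity units in Ctrl and 9040 to 13000 in AggE mice, while the ratio of Alas2 differed by -0.42 (adjusted p = 0.596). Biliary markers summed to 565 to 610 in Ctrl and 652 to 1010 in AggE mice, and 1 of the 8 passed (Spp1, 1.36). Of 18 leukocyte markers 11 were higher and none passed the limma test, and the pan-leukocyte marker Ptprc was above background on 0 of 9 arrays. Hepatocyte markers summed to 75300 to 88200 in Ctrl and 91100 to 127000 in AggE mice, and Alb differed by -0.04 in the ratio. Sinusoidal endothelial markers summed to 1260 to 1300 in Ctrl and 1140 to 1250 in AggE mice, with 7 of 8 lower in the ratio and none past the limma test (0 higher and 1 lower before adjustment). The summed levels did not overlap between the groups for the biliary, hepatocyte and endothelial lists. The part of these cells in the cell cycle result was not tested.

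**Figure D4:**
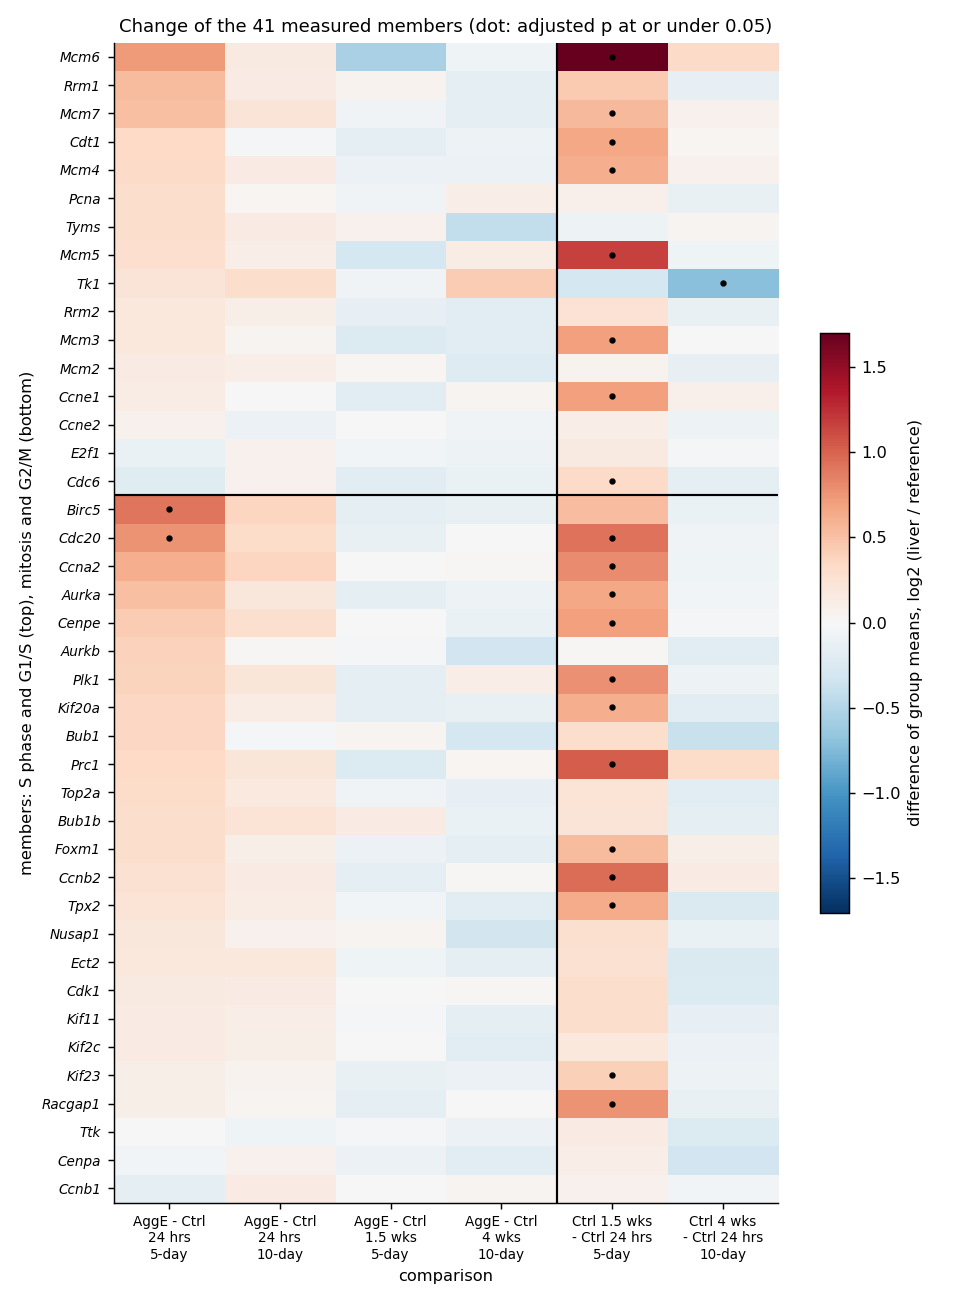
Heat map of the log2 change (colour) of each of the 41 genes (rows, S phase then mitosis) in 6 comparisons (columns: AggE minus Ctrl at the 4 times, then Ctrl at the later time minus Ctrl at 24 hrs for each regimen). Dots mark an adjusted p of 0.05 or less: 2 genes at 24 hrs post-5-day, 20 in Ctrl over time post-5-day and 1 in Ctrl over time post-10-day.

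At 24 hrs post-10-day stressor 37 of the 41 genes had a higher mean in AggE mice, with a median of 0.12, and none passed. Of these 41, 28 were higher in the liver channel alone, with a median of 0.03. In the limma test 0 of 41 were called (0.0579% of all probes), and before adjustment 0 were higher and 0 lower at p of 0.05 or less, beside 1.47% and 1.46% of all probes. Birc5 stood at -3.67, -3.06, -3.67 and -3.60 in Ctrl and at -2.81, -3.32, -3.24, -3.10 and -3.20 in AggE mice. Only Ctrl mouse 2 overlapped the AggE mice, and the difference was 0.37 ± 0.22 (limma adjusted p = 1.00). Cdc20 stood at -3.32, -3.05, -3.17 and -3.15 in Ctrl and at -2.56, -2.71, -3.11, -2.72 and -3.22 in AggE mice, with a difference of 0.31 ± 0.19 (limma adjusted p = 1.00) and AggE mice 3 and 5 inside the Ctrl range. Ccna2 had the lowest p of the set, with a difference of 0.37 ± 0.20 (limma adjusted p = 1.00). Of the members with a lower AggE mean, Cdt1 was at -0.02. The other DNA replication genes (29 of 35 higher, median 0.12) and other mitosis genes (44 of 53 higher, median 0.09) held no called gene in the limma fit either, with 3 and 2 higher before adjustment. Kupffer cell markers summed to 1340 to 1760 intensity units in Ctrl and 1780 to 2140 in AggE mice, with no overlap. Biliary markers summed to 584 to 634 and 698 to 913, also with none. Sums of the other marker lists overlapped. The part of these cells was not tested.

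The 5-day difference was then set against the 10-day difference. It was larger for 35 of the 41 genes, by a median of 0.13, but 0 members were called in the limma test of the difference (0% of all probes). At an unadjusted p of 0.05 or less 0 members had a larger and 1 (Cdc6) a smaller difference after 5 days, beside 3.05% and 2.74% of all probes. The difference of differences was 0.57 ± 0.33 for Mcm6 and 0.54 ± 0.32 for Birc5 (adjusted p = 0.891 for both), and 0.40 ± 0.24 for Rrm1. With the share of detected probes as a covariate 20 of 41 were positive, with a median of -0.002.

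After stress-withdrawal no member was called between AggE and Ctrl mice, and at 1.5 wks the direction of the set depended on single mice. At 1.5 wks post-5-day 33 of 41 genes were lower (median -0.06), and 0 were called by limma (0% of all probes). At an unadjusted p of 0.05 or less 0 were higher and 1 was lower, beside 1.71% and 1.63% of all probes. Mcm6 was that gene, at -1.78, -2.68, -1.22 and -1.52 in Ctrl and -2.21, -2.36, -2.82, -2.51 and -1.86 in AggE mice, a difference of -0.55 ± 0.24 (limma adjusted p = 1.00). Ctrl mouse 2 lay below all AggE mice but mouse 3. Mcm5 differed by -0.30 ± 0.16 (limma adjusted p = 1.00), with overlapping groups at -0.87, -1.74, -0.89 and -1.39 in Ctrl and -1.28, -2.16, -1.62, -1.50 and -1.05 in AggE mice. Ccne1 (cyclin E1), which starts S phase entry with its kinase partner, differed by -0.20 ± 0.15. Within slide 8, which held AggE mouse 5 and Ctrl mice 1 to 3, the median difference was 0.04, with Mcm6 at 0.03 and Mcm5 at 0.12. Without AggE mouse 2, which was on slide 7, 23 of 41 genes were higher (median 0.01), and without Ctrl mouse 3, 21 were (median 0.002). Without AggE mouse 1 none was higher (median -0.13), without Ctrl mouse 4, 2 were (median -0.16), and without Ctrl mouse 2, 7 were, with 7 lower at an unadjusted p. With slide as a fixed block 20 were higher, with a median of -0.01.

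At 4 wks post-10-day 31 of 41 genes were lower in AggE mice (median -0.11), and 0 were called by limma (1.71% of all probes). At an unadjusted p of 0.05 or less 1 was higher and 4 were lower, beside 7.96% and 8.08% of all probes. Tyms, which makes thymidylate de novo, ran from -1.75 over a median of -1.38 to -1.27 in Ctrl and from -1.98 over -1.96 to -1.39 in AggE mice, a difference of -0.41 ± 0.14 (limma adjusted p = 0.112). AggE mouse 1, at -1.39, was the only AggE mouse above the lowest Ctrl mouse. Tk1, which salvages thymidine, ran from -1.43 over -1.11 to -0.27 in Ctrl and from -1.24 over -0.48 to 0.02 in AggE mice, with overlapping groups and a difference of 0.43 ± 0.18 (limma adjusted p = 0.212). Erythroid precursor markers summed to 2100 to 3570 intensity units in Ctrl and 3650 to 7490 in AggE mice, with no overlap, and 9 of 12 were higher in the ratio, with 0 called by limma and 1 higher before adjustment. Whether they bear on the Tk1 difference was not tested. Nusap1, Bub1 and Kif2c, at -0.31, -0.30 and -0.19, were each above background on 1 of the 12 arrays. Among members detected on all arrays of a group, Pcna and Mcm5 each differed by 0.12, Mcm2 by -0.21 and Foxm1 by -0.16. Of the other DNA replication genes Prim2, a primase subunit, was called lower, at -0.33 ± 0.14 in Ctrl and -0.61 ± 0.09 in AggE mice (SD, n = 6 and 6; limma adjusted p = 0.0433), a call lost in the liver channel alone (limma adjusted p = 0.818). Both Tk1 and Tyms passed without AggE mouse 1 or without Ctrl mouse 2, and Tyms passed with detection as a covariate (-0.44, adjusted p = 0.0166). Within slide 10, which held AggE mouse 1 and Ctrl mice 4 to 6, 17 of 41 genes were higher and the median was -0.03, with Tyms at -0.01 and Tk1 at -0.03. With slide as a fixed block 24 of 41 were higher (median 0.02), and in the liver channel alone 18 were (median -0.005). With normexp fitted on all spots the median was -0.31. Leaving out any 1 mouse left 7 to 12 of 41 higher, with medians of -0.14 to -0.09.

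The change from 24 hrs to the later time was tested as a difference of AggE minus Ctrl differences. Post-5-day, the 24 hrs difference exceeded the 1.5 wks difference for 38 of 41 genes, by a median of 0.33. It did so for 35 in the liver channel alone, by a median of 0.12. None of the 41 was called by limma (0.0579% of all probes). Before adjustment 14 were larger and 0 smaller at 24 hrs, at p of 0.05 or less, beside 4.35% and 3.29% of all probes. Mcm6 led with 1.27 (adjusted p = 0.238), followed by Birc5 with 1.06 (adjusted p = 0.343) and Cdc20 with 0.89 (adjusted p = 0.347). Without AggE mouse 5 of the 24 hrs group Birc5 passed, and without Ctrl mouse 2 of the 1.5 wks group Mcm6 did. Post-10-day, the 24 hrs difference exceeded the 4 wks difference for 36 of 41 genes, by a median of 0.26, and 0 were called (0.0502% of all probes). In the liver channel alone it did so for 27 of 41, by a median of 0.03. At an unadjusted p of 0.05 or less 3 were larger (Tyms at 0.56, Kif2c and Ect2) and 0 smaller, beside 4.31% and 4.15% of all probes. These comparisons share mice with those above.

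Post-5-day, more members passed between times in the sham mice than between AggE and Ctrl mice at either time. More of all probes did so too, 14.1% against 1.47% at 24 hrs and 0% at 1.5 wks. In Ctrl liver 39 of 41 genes were higher at 1.5 wks than at 24 hrs post-5-day, with a median of 0.41 against 0.02 over all genes. In the limma fit 20 passed, all higher, 8 in S phase and 12 in mitosis, where 14.1% of all probes passed in either direction. Mcm6 went from -3.47, -3.46, -3.66 and -3.38 at 24 hrs to -1.78, -2.68, -1.22 and -1.52 at 1.5 wks. Mcm5 went from -2.35, -2.30, -2.57 and -2.29 to -0.87, -1.74, -0.89 and -1.39. No mouse overlapped between the times for either gene, and Ctrl mouse 2 at 1.5 wks was the closest to the 24 hrs mice for both. The share of all probes without overlap was not worked out for this comparison. Mcm6 rose by 1.69 ± 0.25 (SE; 3.23-fold; adjusted p = 9.16e-06) and Mcm5 by 1.16 ± 0.17 (2.23-fold; adjusted p = 7.78e-06).

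The mitotic genes that passed spanned entry, spindle and cytokinesis. Ccnb2 went from -2.71, -2.48, -2.71 and -2.72 to -1.46, -2.13, -1.36 and -1.89, a rise of 0.95 ± 0.14 (1.93-fold; adjusted p = 1.23e-05), with no overlap. Its change in the liver channel alone was 0.31 and did not pass (adjusted p = 0.143). Cdc20 rose by 0.93, Ccna2 by 0.81, Plk1 by 0.77 and Aurka by 0.65. Prc1, which bundles the microtubules of the central spindle, was not detected over background in the 4 Ctrl mice at 24 hrs but was in 3 of 4 at 1.5 wks, and its log2 ratio was higher by 1.03 (adjusted p = 4.09e-05). Another 8 members that passed were likewise detected in none of the Ctrl mice at 24 hrs. At 1.5 wks Racgap1 and Foxm1 were detected in 2 of 4 Ctrl mice and the others in 1 of 4. Their log2 differences were 0.76 for Racgap1, 0.70 for the kinetochore motor Cenpe, 0.69 for Mcm3 and 0.66 for Cdt1. They were 0.62 for Kif20a, 0.54 for the transcription factor Foxm1, 0.41 for Kif23 and 0.32 for Cdc6. The sizes of these differences rest on liver signals not over background at 24 hrs. No fold is therefore given for them, and the log2 differences are not measured sizes. In the liver channel alone all 9 were smaller, from 0.05 for Kif20a and 0.09 for Cdc6 to 0.75 for Prc1. The calls of Racgap1, Foxm1, Kif23, Cdc6 and Kif20a were lost there (limma adjusted p from 0.088 to 0.735). Tpx2, the activator of Aurka, also passed, but no Ctrl mouse was above background at either time, so the size is not given, and in the liver channel alone it did not pass (adjusted p = 0.786). Ccne1 (cyclin E1), above background in 1 of the 4 Ctrl mice at 24 hrs and in all 4 at 1.5 wks, rose by 0.69. Mcm7 rose by 0.55, a call lost in the liver channel alone (0.33, adjusted p = 0.0607).

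Members of the same classes did not pass. Birc5 differed by 0.53 ± 0.24 (adjusted p = 0.145), Rrm1 by 0.44 ± 0.18 (adjusted p = 0.0924), Cdk1 by 0.31 ± 0.15 (adjusted p = 0.200), Pcna by 0.08 ± 0.12 (adjusted p = 0.720), Tyms by -0.08 ± 0.17 (adjusted p = 0.823) and Tk1 by -0.30 ± 0.22 (adjusted p = 0.440). Mcm2 was the 1 helicase subunit not called, at 0.06 ± 0.18. Mcm4 passed at 0.62 but had no settled direction, since its change was -0.16 in the liver channel alone and -0.35 without loess, and it was above background in 4 Ctrl mice at 24 hrs and 2 at 1.5 wks. In the liver channel alone 12 members were called higher, among them E2f1, which did not pass in the ratio, and 3 lower (Pcna, -0.29; Rrm1, -0.42; Tk1, -0.73), where 6.64% of all probes passed higher and 10.3% lower. Of the 41 genes 29 were then higher, with a median of 0.08, and 26 were without loess, with a median of 0.21.

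**Figure D5:**
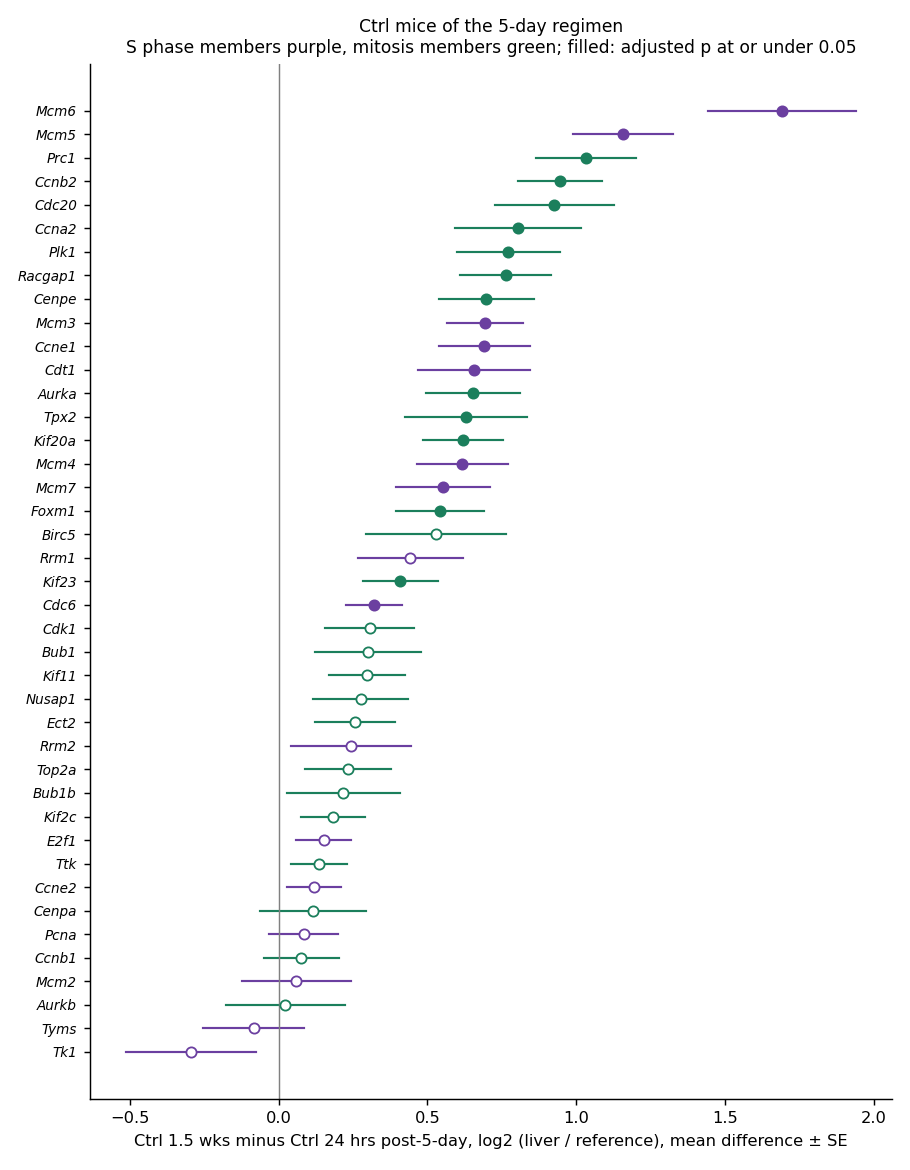
Log2 change of each of the 41 genes (rows) in Ctrl liver from 24 hrs to 1.5 wks post-5-day (x axis), with lines of 1 SE to each side; purple S phase, green mitosis, filled where the adjusted p is 0.05 or less. The 20 filled points are all to the right of 0, led by Mcm6 at 1.69 and Mcm5 at 1.16.

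The 24 hrs Ctrl arrays shared slide 1 and Ctrl mice 1 to 3 at 1.5 wks shared slide 8. No slide held Ctrl mice of both times, and the 1.5 wks mice were also older, so slide and age cannot be told apart from time. Ctrl mouse 4 at 1.5 wks, on slide 9, scanned on the second day and with a title naming 10 days, lay inside the 24 hrs Ctrl range for Cdt1, Kif20a and Tpx2 among the members that passed. Among those that did not, it lay below that range for Mcm2, Rrm2, Tyms, Top2a, Aurkb, Bub1 and Cenpa. Without it 22 members passed, with a median of 0.45. With slide as a random block 11 passed, with scan day as a block 28 did, and with detection as a covariate 20 did. The share of all probes called in these refits is not given. The AggE mice allowed a comparison on 1 slide: on slide 3 the mean of AggE mice 1, 3 and 4 at 1.5 wks was above AggE mouse 5 at 24 hrs for 40 of 41 genes, by a median of 0.47, a value with no test because 1 side is a single mouse. That mouse was the lowest of the AggE mice at 24 hrs for Birc5, Cdc20, Aurka, Mcm6 and Mcm7. Over the whole AggE groups the mean of Birc5 was -2.24 at 24 hrs and -2.77 at 1.5 wks, and that of Cdc20 was -2.54 and -2.50.

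Other lists of the cycle and cell type markers differed between the same Ctrl mice. Of 35 other DNA replication genes 11 passed higher and 1 lower (median 0.27), and of 53 other mitosis genes 16 and 2 (median 0.29), beside 1424 higher and 1424 lower of all 17016 genes. All 9 Kupffer cell markers were lower, 3 of them past the test, with Clec4f at -2.38 (adjusted p = 3.35e-05). Of 8 sinusoidal endothelial markers 7 were lower, 3 past the test, with Stab2 at -2.01 (adjusted p = 1.14e-05). Among 10 stellate cell and fibroblast markers 4 passed higher and 1 lower, with Col1a1 at 1.13 (adjusted p = 0.000892). Hepatocyte markers summed in the liver channel alone to 75300 to 88200 intensity units at 24 hrs and to 40100 to 60600 at 1.5 wks. The ratio of Alb went the other way, by 1.04 (limma adjusted p = 0.106), from changes of -1.11 in Cy-5 and -2.14 in Cy-3. Erythroid precursor markers summed to 5940 to 10400 at 24 hrs and 2020 to 5300 at 1.5 wks, with no overlap, and 10 of 12 were lower in the ratio, 2 past the test. The part of these shifts in the cell cycle result was not tested.

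Post-10-day the sham mice were compared in the same way. In Ctrl liver 9 of 41 genes were higher at 4 wks than at 24 hrs (median -0.10), and 1 passed, where 13% of all probes did. Tk1 stood at -0.24, -0.03, -0.23 and -0.65 at 24 hrs and ran from -1.43 over a median of -1.11 to -0.27 at 4 wks. The highest mouse at 4 wks lay inside the range at 24 hrs. Tk1 fell by 0.71 ± 0.20 (SE; 1.63-fold; adjusted p = 0.0166). Erythroid precursor markers summed to 4450 to 6250 intensity units at 24 hrs and 2100 to 3570 at 4 wks, with no overlap, while 7 of 12 were higher in the ratio and 1 passed, lower. Stellate cell and fibroblast markers summed to 1260 to 2000 at 24 hrs and 2370 to 3550 at 4 wks, also with no overlap. Biliary markers summed to 584 to 634 and 642 to 959, again with none. Sums of the remaining lists overlapped. The ratio of Stab2 differed by -0.89 (limma adjusted p = 0.028). The part of these cells in the Tk1 result was not tested. Of the members that did not pass, Prc1 differed by 0.31, Mcm6 by 0.32 and Cdk1 by -0.23. All 4 wk arrays came from the second scan day. No slide held Ctrl mice of both times, and the 4 wk mice were older, so slide and age cannot be told apart from time. With scan day as a block 36 of 41 genes were higher instead (median 0.35) and Cenpa, Mcm2 and Mcm7 passed; with detection as a covariate 35 were higher (median 0.17), with Cdt1, Mcm4 and Prc1 higher and Tk1 lower past the test. The direction of the set over this interval therefore depended on the model. Without Ctrl mouse 2 of the 24 hrs group none passed, and without mouse 1 of it 2 did.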

How the data were processed

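Liver RNA (Cy-5) from 39 mice in 8 groups was compared with reference RNA (Cy-3) on Agilent 4 x 44k arrays, without dye swaps. The authors deposited Agilent Feature Extraction output (version 11.5.1.1 per the submitters' processing notes) holding spot intensity, local background and log10 ratios, and a series table of log10 ratios. The median-signal columns were used. Spots with a local background over 2 times the array's median in either channel (0 to 667 per array, at most 1.48%; 5 member spots) were kept out of the background fit and set missing, as were outlier-flagged spots (0.295% to 1.46%). This choice was made after seeing the data. Background was corrected by normexp (offset 50), then loess within and quantile normalization between arrays. limma 3.58.1 in R 4.3.3 fitted 8 group means and 9 contrasts (eBayes, Benjamini-Hochberg over 25903 probes, of which 24375 had a gene symbol). The number of arrays limits the precision. Given in full were all members called and otherwise, in each comparison, up to 3 per direction with the smallest p among those above background on all arrays of a group, and, of the other lists, genes called between AggE and Ctrl. The members and lists were chosen with earlier results of these data known. The groups came from the sample descriptions. No pair of arrays was a duplicate (highest correlation 0.987). Tested on simulated data at 25903 probes, 193 of 200 probes changed by 1.5 on the log2 scale were recovered, with 12 false calls, at 24 hrs post-5-day. In all, 15 alternatives were planned and 4 added, beside leaving out each mouse.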

Additional observations from a re-analysis of the deposited data

Results flagged for a closer look

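Dixon's test of the most distant mouse in a group marked 9 of 122 member-by-group combinations (7.38%), where chance marks about 1 in 20. At 24 hrs post-5-day, Ctrl mouse 2 was the highest of its group for Ccnb2 (-2.48, next -2.71) and for Plk1 (-1.17, next -1.49). In the AggE group at that time, mouse 5, the 1 mouse on slide 3, was the lowest for Mcm7 (-2.25, next -2.00) and for Pcna (-2.78, next -2.31). At 24 hrs post-10-day, Ctrl mouse 1 was the lowest for Ccnb2 (-2.75, next -2.50) and Ctrl mouse 2 the highest for Birc5 (-3.06, next -3.60). AggE mouse 1 was the highest for Rrm1 (-2.31, next -2.65), and AggE mouse 5, the 1 mouse of the group on slide 6, was the lowest for Ccnb2 (-2.86, next -2.33). At 4 wks post-10-day, AggE mouse 1, the 1 mouse of its group on slide 10, was the highest for Tyms (-1.39, next -1.83). The cause of these distances was not tested.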

How the results depend on the processing

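The count of members called at 24 hrs post-5-day (2) was the least settled: 0 with Aquantile scaling, with no normalization between arrays and with slide as a random block; 1 with normexp fitted on all spots and with detection as a covariate; 5 without loess and with scan day as a block; 6 with array weights, with an offset of 16 and with the series table; 7 in the liver channel alone; 8 from processed signals and 9 without background subtraction. Leaving out 1 mouse gave 0 to 8. Between 24 and 41 of the members measured were higher in every such fit. At 4 wks the count (0) became 2 with array weights or normexp fitted on all spots and 1 with detection as a covariate or slide as a fixed block (Ccnb1), and 0 to 2 on leaving out 1 mouse. For the 24 hrs minus 1.5 wks change the count (0) became 1 in the liver channel alone, without loess and from processed signals, and 0 to 1 on leaving out 1 mouse. For Ctrl at 1.5 wks minus 24 hrs the count (20) became 13 with normexp fitted on all spots, 11 with slide as a random block, 15 in the liver channel alone (12 higher, of which E2f1 was not among the 20, and 3 lower) and 28 with scan day as a block, and 15 to 22 on leaving out 1 mouse; Mcm4 reversed to -0.16 in the liver channel alone, -0.35 without loess, -0.15 from processed signals and -0.16 in the series table. For Ctrl at 4 wks minus 24 hrs the count (1) became 2 with Aquantile scaling, no normalization between arrays or array weights, 0 with only those groups fitted or slide as a random block, 3 with scan day as a block or the series table, 4 with detection as a covariate, and 0 to 2 on leaving out 1 mouse. No member was called in any fit at 24 hrs post-10-day or at 1.5 wks. Same-numbered mice shared only a number (correlations of -0.43 to 0.48, 5 of 18 above 0.1), and with the replicate block 2 members were called at 24 hrs post-5-day and 20 in Ctrl at 1.5 wks, as without it. The cause of the changes between fits was not tested. The share of all probes called in each fit is not given here, so a change in count may not be particular to the members. Signal over background limits the set. With a filter on signal over background, 25 members were kept for Ctrl at 1.5 wks minus 24 hrs, and 16 of them were called. Only 15 members were above background in every Ctrl mouse at 24 hrs or in every Ctrl mouse at 1.5 wks. Another 14 were above background in none of these mice. The filter thus kept members that were not detected throughout either Ctrl group. The 16 calls therefore do not show that the called members were detected in the mice compared.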
